A study of Mus musculus with 6 samples.

Results

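Creatine kinases, the creatine supply, AMP deaminases and adenylate kinase keep the ATP of muscle topped up, and the mRNAs of 9 genes of this system were measured here in the gastrocnemius muscle of young and aged mice. The genes were Ckm, Ckmt2, Ckb, Slc6a8, Gatm, Gamt, Ampd1, Ampd3 and Ak1. They were found by matching the RefSeq accession of every probe that was not a control to the mouse symbol. They were chosen by their known roles, with earlier results of these data known. All 9 had a probe, 11 probes in all, among 36717 genes or other named targets on the array. All 9 also passed the filter on dim probes, with 20900 genes tested.

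Muscle spends ATP faster than mitochondria can deliver it at the start of work. Creatine kinase moves a phosphate from phosphocreatine to ADP and so refills ATP on the spot, while the mitochondrial form of the enzyme makes phosphocreatine where ATP is produced. Adenylate kinase turns a pair of ADP into ATP and AMP, and AMP deaminase removes the AMP as IMP, which is the entry to the purine nucleotide cycle. Muscle makes little creatine of its own and takes most of it up from blood through a transporter.

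The study used male C57BL/6J mice on a standard diet. The young mice were 13 weeks old and the aged mice 26 months old, with 3 mice in each group and 1 single-colour Agilent array per mouse. No mouse was treated or genetically altered according to the labels, and age was the only factor compared. The gastrocnemius was taken whole, so its values mix fast and slow fibres with nerve, vessels and blood.

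The arrays shared 1 slide and 1 scan, with all arrays of young mice and that of aged mouse 1 in row 1 of the slide and those of aged mice 2 and 3 in row 2. On each array 48.7% to 53.8% of probes exceeded background clearly. Values are given as log2 of the processed signal minus the 75th percentile of the array, so that 0 is this percentile. The label of the tissue matched its markers, as 10 of 11 fast fibre genes could be tested, all 10 were well above background on every array, and the log2 of their summed signal was 12.7 to 13.0 in young and 12.4 to 12.8 in aged mice. Of the 10 Schwann cell genes tested, out of 11, 7 had a lower and 3 a higher mean in aged mice, with 1 at an adjusted p under 0.05 in limma (log2 of the summed signal 4.65 to 5.50 in young and 4.66 to 5.39 in aged mice). Of the 10 macrophage genes tested, out of 11, 2 had a lower and 8 a higher mean (5.48 to 5.71 and 5.67 to 5.73). In a muscle extract, fewer cells of a type and less RNA per cell cannot be told apart.

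Ckmt2 had a lower mean in aged than in young mice (0.486-fold) and Ampd3 one several times as high (5.35-fold), and neither passed the threshold of an adjusted p under 0.05 in limma. The means of 7 of the 9 genes were lower in aged mice and those of 2, Ampd3 and Gamt, were higher. None of the 9 genes passed the threshold, against 0.254% of all genes tested (0.196% higher and 0.0574% lower in aged mice). These are 53 genes, and leaving out aged mouse 1 gave 199, leaving out aged mouse 3 gave 1, and leaving out any other mouse gave 8 or 9. At an unadjusted p under 0.05 in limma there were 2 genes, Ckmt2 (lower, as 8.36% of all genes) and Ampd3 (higher, as 6.07%), which is 22.2% of the 9 against 14.4% of all genes. For 4 of the 9 genes (44.4%) the values of aged and young mice did not overlap, against 21.8% of all genes. These were Ckmt2, Slc6a8 and Gatm, with every aged mouse below every young mouse, against 13.9% of all genes in that direction, and Ampd3, with every aged mouse above, against 7.92%. The median log2 fold change was -0.26 over the 9 genes and -0.06 over all genes tested. Over the 406 genes with a mean log2 signal above 8, which include Ckm, Ckmt2 and Ak1, it was -0.16. Of these 406 genes, 93 were lower in aged mice without overlap. With quantile normalization the log2 fold changes of Ckm, Ckmt2 and Ak1 were -0.01, -0.86 and -0.06.

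**Figure D1:**
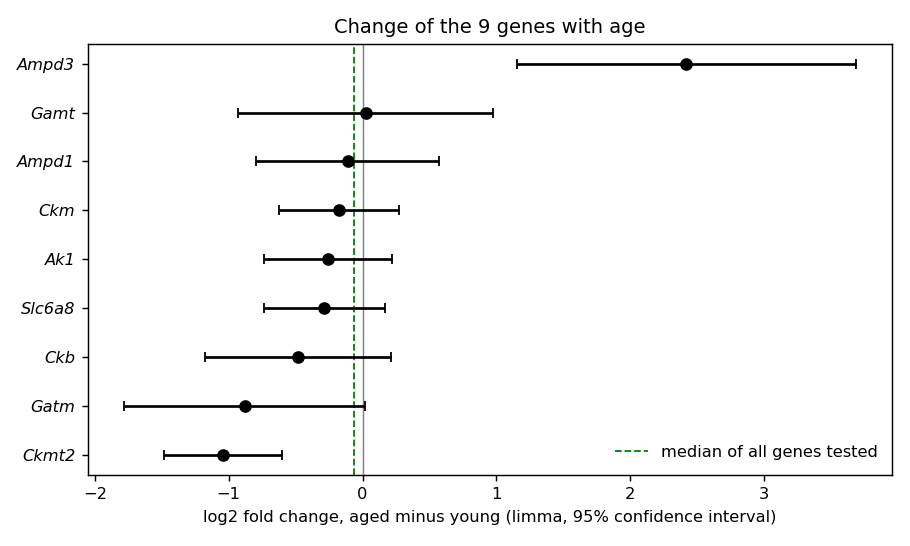
The log2 fold change of each of the 9 genes between aged and young mice (horizontal axis) is plotted with its 95% confidence interval from limma, and the dashed line is the median of all genes tested. The intervals of Ampd3 (1.15 to 3.69) and Ckmt2 (-1.48 to -0.60) lie on one side of 0, and the other 7 include 0.

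Ckmt2 (NM_198415) encodes the creatine kinase of sarcomeric mitochondria, which sits between the mitochondrial membranes and is more abundant in oxidative than in glycolytic fibres. Its log2 signal was 9.23, 9.59 and 9.57 in young mice 1 to 3, whereas aged mice 1 to 3 had 8.61, 8.43 and 8.23. The groups were well apart, and the lowest young mouse was above the highest aged mouse. The young mean of 9.46 ± 0.20 (SD, n = 3) and the aged mean of 8.42 ± 0.19 (SD, n = 3) differed by -1.04 on the log2 scale (standard error 0.18, unadjusted p = 0.00086 and adjusted p = 0.104 from limma). The groups were also apart before any scaling between arrays, at a processed signal of 159400 to 199000 in young and 81410 to 121200 in aged mice. The adjusted p was 0.0386 from limma with normexp background correction and 0.0429 with a mean-variance trend, and between 0.0685 and 0.327 in the other 15 alternatives. With any 1 mouse left out the log2 fold change was between -1.16 and -0.95.

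Most slow fibre genes also had lower means in aged mice. All 9 genes of the slow fibre list could be tested and all were well above background on every array. A lower mean in aged mice was seen for 8 and a higher one for 1, with 4 at an unadjusted p under 0.05 in limma, all lower (44.4%, against 8.36% of all genes), none past the threshold and a median log2 fold change of -0.58. Lower means were also seen for 9 of the 10 fast fibre genes tested (median -0.16) and for 359 of the 406 genes with a mean log2 signal above 8 (median -0.16). The log2 of the summed signal of the slow fibre genes was 10.4 to 10.8 in young and 9.70 to 10.3 in aged mice. Myh7, the slow myosin heavy chain, had a young mean of 8.62 ± 0.41 (SD, n = 3) and an aged mean of 7.96 ± 0.37 (SD, n = 3), with overlapping groups. The part of the slow fibre genes in the value of Ckmt2 was not tested.

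Ckm (NM_007710), the muscle-type creatine kinase of the cytosol and the myofibril M-band, was close in both groups. Its log2 signal was 9.72, 9.78 and 10.1 in young and 9.41, 9.83 and 9.77 in aged mice. The groups overlapped, and aged mouse 1 was the lowest of the 6. Its log2 change with age was -0.18 ± 0.19 (standard error; limma adjusted p = 0.688), with a 95% confidence interval of 0.648-fold to 1.21-fold. Ckb (NM_021273), the brain-type subunit, which is present in many tissues and in immature muscle, was -0.69, -0.98 and 0.02 in young and -1.12, -0.73 and -1.24 in aged mice. Young mouse 3 was the highest and the groups overlapped. The change with age was -0.48 ± 0.29 on the log2 scale (standard error; limma adjusted p = 0.486), and a further Ckb probe gave -0.23. Without young mouse 3 the change of Ckb was -0.20.

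**Figure D2:**
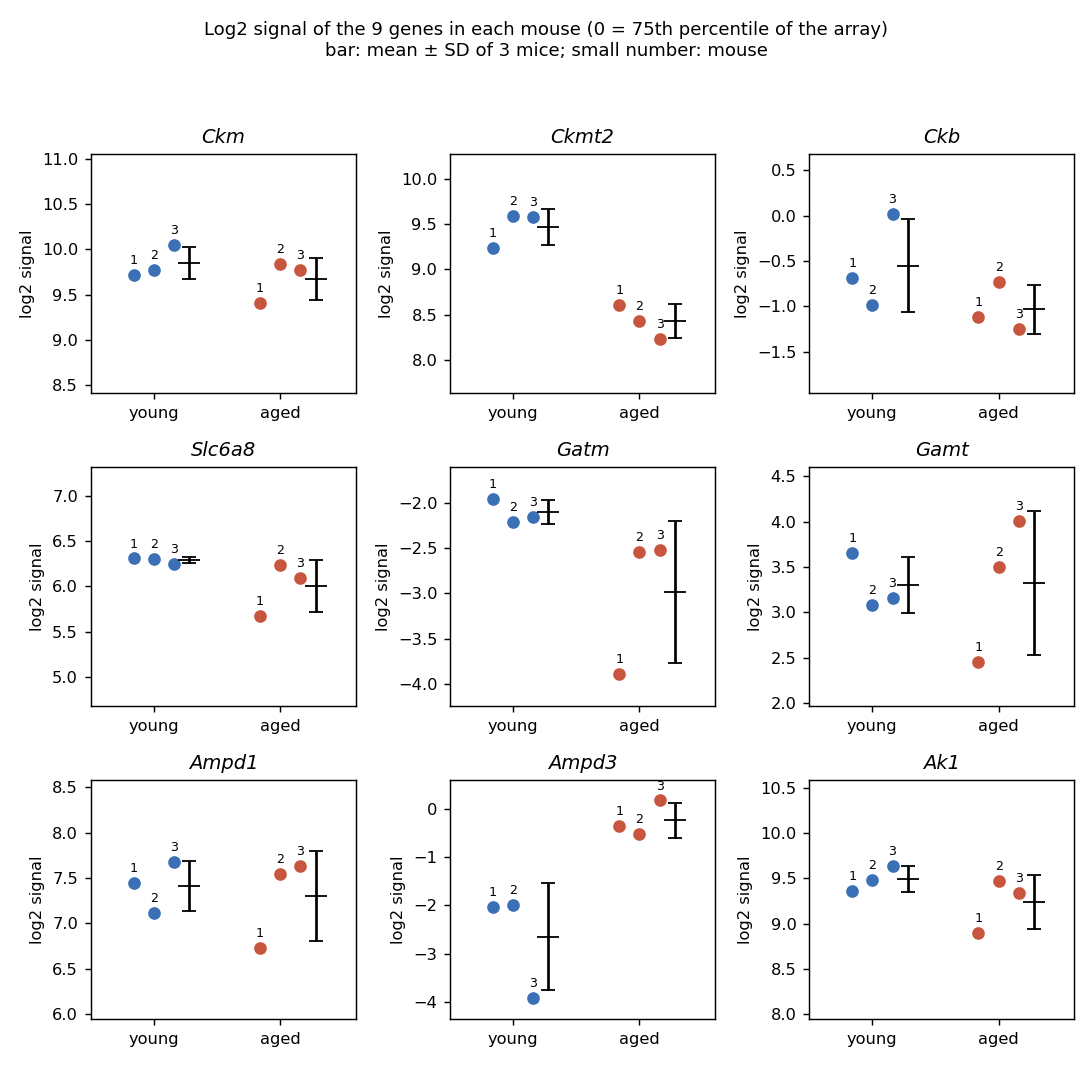
The log2 signal of each of the 9 genes (vertical axes, whose spans differ between panels, 0 being the 75th percentile of the array) is plotted for each of 3 young and 3 aged mice, with the mean and SD of each group as a bar. Ckmt2 lies between 9.23 and 9.59 in young and between 8.23 and 8.61 in aged mice, Ampd3 is higher in all aged mice, and aged mouse 1 is the lowest of the 6 for Ckm, Slc6a8, Gatm, Gamt, Ampd1 and Ak1.

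The bases upstream of the transcription start are shown for Ckmt2 and Ckm, as the pair of creatine kinases with unlike values, and for Ampd3, as the gene with the largest difference. Each stretch is the 250 bases before the annotated start, read 5′ to 3′ on the strand of the gene from the RefSeq table of build GRCm38.p6. Capitals mark each E-box (CANNTG, the letters that myogenic factors and other basic helix-loop-helix proteins bind). The pattern CANNTG is the same on both strands, though the middle letters of a given E-box can differ between them.
Ckmt2 (chr13:91876886-91877135, minus strand): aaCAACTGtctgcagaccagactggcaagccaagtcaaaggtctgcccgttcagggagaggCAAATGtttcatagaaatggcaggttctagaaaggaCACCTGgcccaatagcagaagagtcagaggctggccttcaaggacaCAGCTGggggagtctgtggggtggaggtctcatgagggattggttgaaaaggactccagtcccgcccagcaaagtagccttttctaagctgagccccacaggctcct
Ckm (chr7:19410844-19411093, plus strand): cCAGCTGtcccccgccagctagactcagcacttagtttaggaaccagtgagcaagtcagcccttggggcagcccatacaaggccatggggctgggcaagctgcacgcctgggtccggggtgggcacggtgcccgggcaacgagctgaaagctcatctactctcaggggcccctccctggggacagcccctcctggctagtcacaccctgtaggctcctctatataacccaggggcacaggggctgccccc
Ampd3, first of 3 starts (chr7:110768372-110768621, plus strand): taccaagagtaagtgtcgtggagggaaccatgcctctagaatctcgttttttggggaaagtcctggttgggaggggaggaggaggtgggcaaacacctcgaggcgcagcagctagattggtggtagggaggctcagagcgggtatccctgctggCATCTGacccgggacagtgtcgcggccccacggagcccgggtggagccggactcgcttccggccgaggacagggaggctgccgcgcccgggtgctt
The stretch of Ckmt2 held 4 E-boxes, that of Ckm 1 and that of the first Ampd3 start 1, and the other Ampd3 starts held 3 and 0. E-boxes are common, since 66.2% of 32851 promoters in the table held at least 1 in the same window. An estrogen-related receptor element (TNAAGGTCA) was searched on both strands and found upstream of none of the 7 members in the table (1.14% of all promoters). A MEF2 site, also searched on both strands, was found upstream of Ckb and of no other member (2.92% of all promoters). Its letters overlapped a TATA box, which was searched only as TATAAA and in that form was likewise found upstream of Ckb alone (12.4% of all promoters). Other forms of the TATA box were not searched, and the stretch of Ckm holds the similar letters tatataa near its end. Ampd1 and Slc6a8 had no entry.

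The genes of creatine supply were Slc6a8, Gatm and Gamt. Slc6a8 (NM_133987), which encodes the creatine transporter of the cell membrane, was 6.31, 6.30 and 6.25 in young and 5.68, 6.24 and 6.10 in aged mice. The young mice were close to each other and all aged mice were below them, aged mouse 2 by little. Slc6a8 differed by -0.29 ± 0.19 on the log2 scale (standard error; limma adjusted p = 0.523), or 0.821-fold with a 95% confidence interval of 0.600 to 1.12. Without aged mouse 1 it was -0.12.

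Gatm (NM_025961) encodes the amidinotransferase that makes guanidinoacetate, the first step of creatine synthesis, and Gamt (NM_010255) the methyltransferase that turns guanidinoacetate into creatine. Gatm was -1.96, -2.21 and -2.15 in young and -3.89, -2.54 and -2.52 in aged mice, and its probe was well above background on all 3 arrays of young and on 2 of 3 arrays of aged mice. The groups did not overlap, and aged mouse 1 was far below all others. Gatm differed by -0.88 ± 0.38 on the log2 scale (standard error; limma unadjusted p = 0.0542, adjusted p = 0.357), and the 95% confidence interval of 0.291-fold to 1.01-fold included 1. Without aged mouse 1 it was -0.43 (0.745-fold), with normexp background correction -0.43 (0.743-fold), and in row 1 of the slide, where aged mouse 1 alone stands against the young mice, -1.79 (0.290-fold). Gamt was 3.65, 3.08 and 3.16 in young and 2.45, 3.50 and 4.01 in aged mice. The aged mice held both the lowest and the highest value of the 6, and the groups overlapped. The difference was 0.02 ± 0.40 on the log2 scale (standard error; limma adjusted p = 0.981), and the other Gamt probe gave -0.0022. It turned to -0.12 with median scaling and to -0.84 within row 1 of the slide, and it was between -0.32 and 0.46 with 1 mouse left out. The 95% confidence interval of 0.526-fold to 1.97-fold leaves changes of either sign possible.

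AMP deaminase of muscle fibres is encoded by Ampd1 (NM_001033303), and the isoform known from erythrocytes, which is also made in other tissues, by Ampd3 (NM_009667). Ampd1 was 7.44, 7.12 and 7.67 in young and 6.73, 7.54 and 7.63 in aged mice. The groups overlapped, with aged mouse 1 the lowest and young mouse 3 the highest. Ampd1 differed by -0.11 ± 0.29 on the log2 scale (standard error; limma adjusted p = 0.878), with a 95% confidence interval of 0.576-fold to 1.49-fold. Its sign was not stable. The change was -0.68 within row 1 of the slide, where aged mouse 1 alone stands against the young mice. It was 0.11 with normexp background correction, 0.0026 with quantile normalization, 0.02 without young mouse 3 and 0.18 without aged mouse 1.

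Ampd3 was -2.04, -1.98 and -3.93 in young and -0.35, -0.52 and 0.18 in aged mice. All aged mice were above all young mice, and young mouse 3 was far below the other 2 young mice. The young mean of -2.65 ± 1.11 (SD, n = 3) and the aged mean of -0.23 ± 0.36 (SD, n = 3) differed by 2.42 on the log2 scale (standard error 0.53, unadjusted p = 0.00285 and adjusted p = 0.150 from limma). This is 5.35-fold with a 95% confidence interval of 2.22 to 12.9. The probe was dim in young mice, at a processed signal of 73.0, 65.3 and 13.8 against 243, 200 and 306 in aged mice, and it was not well above background on the array of young mouse 3. Without young mouse 3 the log2 fold change was 1.78 (3.44-fold), and with normexp background correction it was 1.21 (2.31-fold). Ampd3 was higher in aged mice in all 16 alternatives that kept it, with an adjusted p between 0.0667 and 0.413 from limma.

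Erythrocyte genes had lower means in aged mice, in which Ampd3 was higher. Of 12 erythrocyte genes 7 could be tested, and the means of all 7 were lower in aged mice (median log2 fold change -1.08, 6 at an unadjusted p under 0.05 in limma, which is 85.7% against 8.36% of all genes in that direction, none past the threshold). The log2 of their summed signal was 9.33 to 9.87 in young and 8.19 to 8.86 in aged mice. All of the 7 except Alas2 and Slc4a1 are related globin genes, so the 7 are not independent. Alas2 (-1.26, unadjusted p = 0.0209 from limma) and Slc4a1 (-0.49, unadjusted p = 0.241 from limma) both overlapped between the groups. Of the other listed erythrocyte genes, Ahsp and Hbb-bs were not matched, and the rest had no probe that passed the filter. Most genes that respond to denervation had higher means in aged mice. All 14 of that list could be tested, the means of 11 were higher and those of 3 lower, with 11 higher at an unadjusted p under 0.05 in limma (78.6%, against 6.07% of all genes), none past the threshold and a median log2 fold change of 1.40. The log2 of their summed signal was 9.27 to 9.63 in young and 9.11 to 9.63 in aged mice, of which Myh8 alone was 9.38 ± 0.19 and 9.20 ± 0.24 (SD, n = 3). Chrng, the fetal subunit of the acetylcholine receptor, was well above background on 0 of 3 arrays of young and 3 of 3 arrays of aged mice, so that it passed the filter through the aged mice alone. The part of the erythrocyte and denervation genes in the value of Ampd3 was not tested.

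Ak1 (NM_001198790), the cytosolic adenylate kinase of muscle, was 9.36, 9.48 and 9.63 in young and 8.90, 9.47 and 9.34 in aged mice. The groups overlapped, with aged mouse 1 the lowest. Ak1 differed by -0.26 ± 0.20 on the log2 scale (standard error; limma adjusted p = 0.584), with a 95% confidence interval of 0.602-fold to 1.17-fold.

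To ask whether paired isoforms or compartments changed unequally, the log2 signals of 2 genes were subtracted within each array for 3 pairs. Such a difference does not depend on scaling by a percentile, and only its change with age is read, because its level depends on the probes. Ampd3 against Ampd1 changed by 2.53 on the log2 scale. Relative to the mean of the young mice it was 0.58, 0.96 and -1.54 in young mice 1 to 3, and aged mice 1 to 3 had 2.98, 2.002 and 2.61, so that the groups did not overlap (exact two-sided permutation p = 0.1, the smallest that 3 against 3 can give, and 0.15 adjusted over the 3 pairs). With normexp background correction the change was 1.09 (exact permutation p = 0.2), and without young mouse 3 it was 1.76. Ckmt2 against Ckm changed by -0.86, from -0.10, 0.20 and -0.09 in young to -0.42, -1.02 and -1.15 in aged mice, again with no overlap (exact permutation p = 0.1, adjusted 0.15). The mitochondrial creatine kinase was therefore lower in relation to the cytosolic one in 3 of 3 aged mice, least so in aged mouse 1. Ckb against Ckm changed by -0.31, and the groups overlapped (exact permutation p = 0.4, adjusted 0.4).

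**Figure D3:**
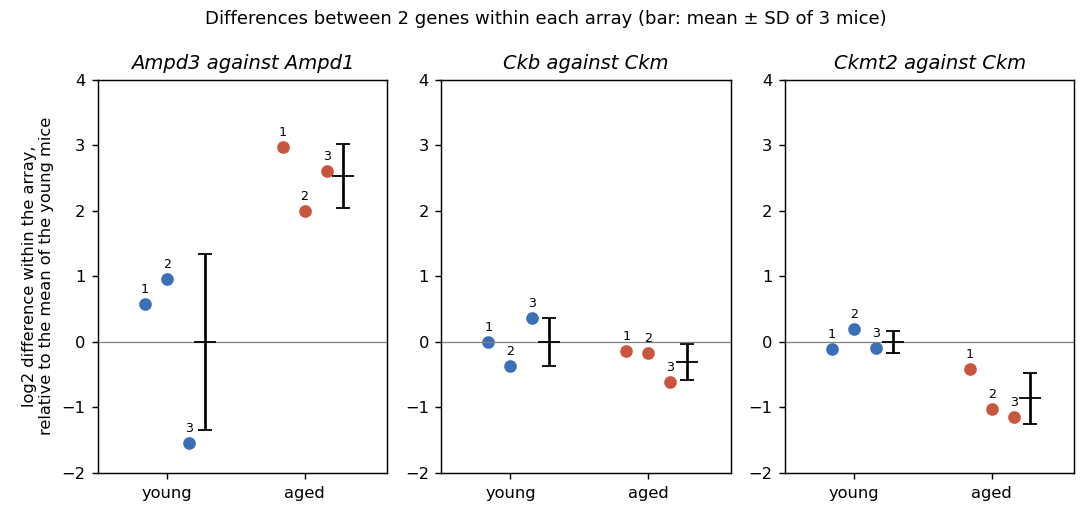
The log2 difference between 2 genes within each array (vertical axis, relative to the mean of the 3 young mice) is plotted for each mouse, with the mean and SD of each group as a bar. Ampd3 against Ampd1 is between 2.002 and 2.98 in aged mice and at most 0.96 in young mice, Ckmt2 against Ckm is between -1.15 and -0.42 in aged mice and at least -0.10 in young mice, and Ckb against Ckm overlaps.

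Aged mouse 1 stood apart from aged mice 2 and 3, in these 9 genes and also between whole arrays. Its array correlated at 0.976 with each of those of aged mice 2 and 3, which correlated at 0.987 with each other. With young mice 1 to 3 it correlated at 0.978, 0.982 and 0.969. Aged mouse 1 was also the only aged mouse in row 1 of the slide, so mouse and slide row cannot be told apart in this difference. Aged mouse 1 was the lowest of the 6 mice for 6 of the 9 genes, a count that was not taken over all genes. In it 8 of the 9 genes were below the mean of the young mice, against 6 in each of the other aged mice. Measured from the young mean, the median of the 9 genes was -0.61 for aged mouse 1, -0.02 for mouse 2 and -0.15 for mouse 3. Over all genes tested it was -0.07, -0.0097 and -0.07. Genes with a strong signal were lower in this mouse in general, as the median over the 406 genes with a mean log2 signal above 8, which include Ckm, Ckmt2 and Ak1, was -0.32, -0.03 and -0.10 for aged mice 1 to 3. Ckmt2 was not lowest in this mouse and lay -0.86, -1.04 and -1.23 from its young mean in aged mice 1 to 3.

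Beyond the 9 genes, 38 others of creatine and adenine nucleotide handling were listed by their known roles, and 33 could be tested. Ak5, Ak7, Ak8, Ak9 and Slc25a31 were too dim. The means of 26 were lower in aged mice and those of 7 higher, with a median log2 fold change of -0.20 against -0.06 over all genes tested. None passed the threshold in limma. An unadjusted p under 0.05 in limma was seen for 6 (18.2%, against 14.4% of all genes). All 6 were lower in aged mice, against 8.36% of all genes in that direction. The groups did not overlap for 8 (24.2%, against 21.8% of all genes), also all lower, against 13.9% of all genes in that direction. Of the 406 genes with a strong signal, 93 did not overlap in that direction.

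In nucleotide breakdown and salvage, 7 of 10 genes had a lower mean. Values after ± are standard errors of log2 fold changes in the sentences that follow. Adk, the adenosine kinase that returns adenosine to AMP, was 5.94, 6.17 and 6.10 in young and 5.62, 5.19 and 5.04 in aged mice (-0.79 ± 0.20 on the log2 scale, limma adjusted p = 0.183), though a second Adk probe gave 0.26. Nt5c3, a cytosolic 5′-nucleotidase of pyrimidine nucleotides, differed by -0.64 on the log2 scale (adjusted p = 0.206 from limma). Nt5c1a, the 5′-nucleotidase of muscle that turns AMP into adenosine, was -2.20, -1.82 and -1.67 in young and -2.35, -3.05 and -2.77 in aged mice (-0.82 ± 0.24, limma adjusted p = 0.228).

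In the purine nucleotide cycle, none of 4 genes had an unadjusted p under 0.05 and all 4 had a lower mean. Adssl1 (also called Adss1), the muscle adenylosuccinate synthase that follows AMP deaminase in the cycle, had a log2 fold change of -0.38 (adjusted p = 0.499 from limma), and Ampd2, the AMP deaminase known from liver, one of -0.09 (adjusted p = 0.885). Among the adenylate kinases, 4 of 8 could be tested. Ak3, the GTP:AMP phosphotransferase of the mitochondrial matrix, was 4.69, 4.78 and 4.95 in young and 4.10, 4.26 and 4.27 in aged mice, with no overlap (-0.59 ± 0.16, limma adjusted p = 0.190).

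The AMP-activated kinase senses a rise of AMP. Of its 7 subunit genes and Stk11, its upstream kinase, 6 of 8 had a lower mean and none had an unadjusted p under 0.05. Prkaa2, the catalytic subunit prevalent in muscle, had a log2 fold change of -0.30 (adjusted p = 0.459 from limma), and Prkag3, the regulatory subunit of fast fibres, one of 0.52 (adjusted p = 0.638). Of the mitochondrial carriers and channels through which ATP, ADP and creatine kinase products pass, Slc25a4, the muscle ADP/ATP carrier, had a log2 fold change of -0.18 (adjusted p = 0.678). Vdac2, a channel of the outer membrane, was 7.22, 7.45 and 7.03 in young and 6.50, 6.52 and 6.94 in aged mice, with a log2 fold change of -0.58 (adjusted p = 0.283 from limma) and no overlap, and Vdac1 (-0.22) and Vdac3 (-0.35) did not overlap either. Slc16a12, a creatine exporter of the cell membrane, was -3.45, -3.33 and -3.22 in young and -4.06, -4.13 and -3.85 in aged mice (-0.68 ± 0.16, limma adjusted p = 0.165), and was well above background on 3 of 3 arrays of young but 1 of 3 arrays of aged mice.

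**Figure D4:**
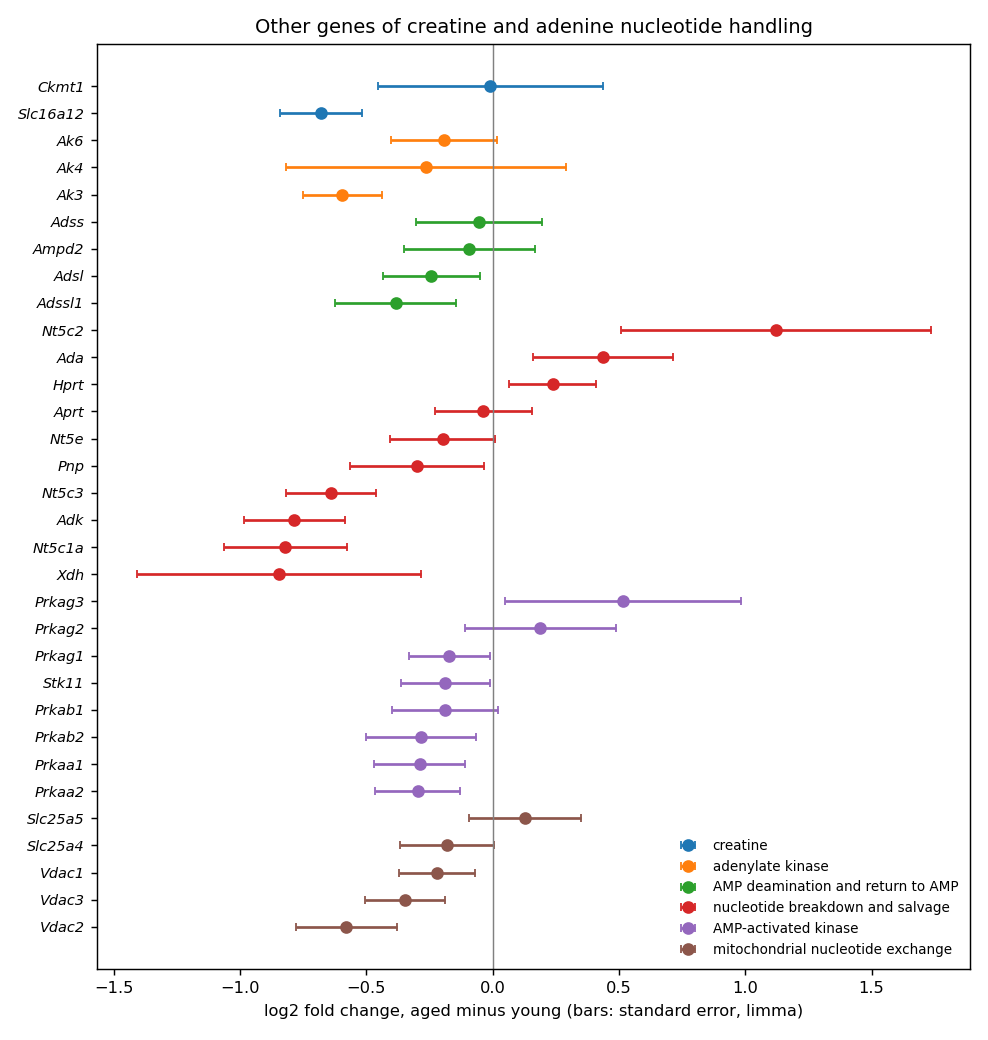
The log2 fold change between aged and young mice (horizontal axis, with the standard error from limma as bars) is plotted for the other genes tested, coloured by role, leaving out 1 that is not reported here. The means of 26 genes lie below 0, among them Nt5c1a (-0.82), Adk (-0.79), Nt5c3 (-0.64) and Ak3 (-0.59), and Slc16a12 (-0.68) was well above background on 1 of 3 arrays of aged mice.

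The gene of the 9 with the smallest p was Ckmt2, and the genes whose log2 signal followed it most closely over the 6 arrays were Cpox, an enzyme of heme synthesis in mitochondria (Pearson r = 0.998), Wif1, a secreted Wnt inhibitor (0.998), and Spry1, an inhibitor of receptor tyrosine kinase signalling (0.997). These are descriptions over 6 arrays that fall into groups by age, and 236 of the 13842 other genes with a symbol had an r above 0.95.

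**Figure D5:**
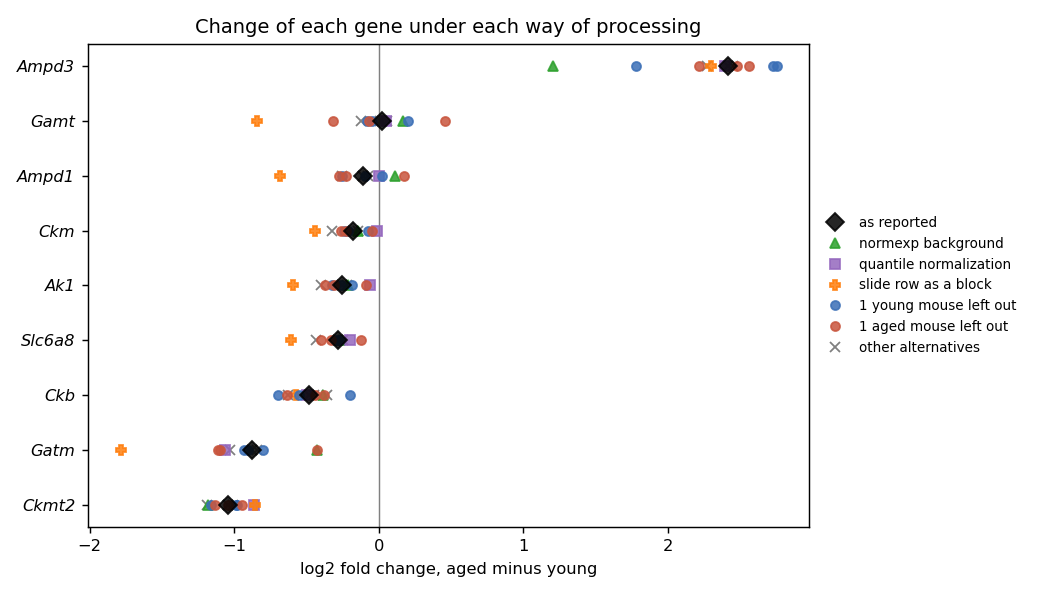
The log2 fold change of each of the 9 genes (horizontal axis) is plotted as reported (diamond) and under the alternatives, with leaving out 1 mouse in colour by group. Ckmt2 stays between -1.19 and -0.86 and Ampd3 between 1.21 and 2.75, whereas Gamt and Ampd1 lie on both sides of 0.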

How the data were processed

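Total RNA of the gastrocnemius of each mouse was labelled with Cy3 and hybridized to an Agilent mouse array. For every array the authors deposited a Feature Extraction file of linear intensities. Its processed signal had been background-subtracted and detrended within the array by their software and not scaled between arrays. The version is 11.0.1.1 in the file headers and 9.5 in the submitters' processing notes. The deposited series matrix held the same intensities (largest log2 difference 0). The study's methods name no normalization or test for the arrays.

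Outlier spots (161 to 212 per array) were left out. Spots of one probe were averaged as log2 values, from which the array's own 75th percentile was subtracted. Probes were named through unversioned RefSeq accessions of GRCm38.p6, which gave a symbol to 28331 of 55681 probes (12 of the probes, with all spots flagged on an array, were left out). The array design used mm9, and the coordinates printed are those of the promoter table in GRCm38.p6, not of probes. A probe was kept when well above background on at least 3 of 6 arrays, and a gene was represented by its kept probe with the highest mean. No spot was saturated.

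Age was the only term of a linear model in limma 3.58.1 (R 4.3.3; lmFit, then eBayes, two-sided), with Benjamini-Hochberg adjustment over 20900 genes and 0.05 as threshold. The model was first tested on simulated data. With 3 mice a group the smallest exact two-sided permutation p is 0.1, and the number of arrays limits the precision. The genes named besides the 9 are those of the list with an unadjusted p under 0.05 and no overlap, and some fixed by name (Prkaa2, Prkag3, Slc25a4, Adss1, Ampd2 and Nt5c1a). A further gene fixed by name is not reported here. Vdac1 and Vdac3 were named after their values were seen. The 9 genes and all lists (other pathway genes, fast and slow fibre, denervation response, erythrocyte, Schwann cell and macrophage) were chosen with earlier results of these data known. Alternatives were normexp (offset 50, on the median spot signal, as the files used here give no mean), scaling by quantiles, by the median or by detected probes alone, other filters, the mean of all probes, a trend, slide row or replicate number as a block, the series matrix, and leaving out each mouse.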

Additional observations from a re-analysis of the deposited data

How the results depend on the processing

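Over 17 alternatives, the number of the 9 genes past the threshold was 0, except for 1 (Ckmt2) with normexp background correction and 1 (Ckmt2) with a mean-variance trend. It was 0 with each mouse left out, and the number of other pathway genes past the threshold was 0 in all 16 alternatives run for it. Ckm, Ckmt2, Ckb, Slc6a8, Gatm, Ampd3 and Ak1 kept their direction in every alternative that gave them a value. Gatm and Ampd3 had no value when a probe had to be well above background on all 6 arrays. Ampd1 (log2 fold change -0.11) was -0.68 with the slide row as a block, 0.11 with normexp, 0.0026 with quantile normalization, and between -0.28 and 0.18 with 1 mouse left out. Gamt (0.02) was -0.12 with median scaling, -0.84 with the slide row as a block, and between -0.32 and 0.46 with 1 mouse left out. The cause of these reversals was not tested. With 1 mouse left out, Ampd3 against Ampd1 was between 1.76 and 3.01, Ckb against Ckm between -0.49 and -0.12, and Ckmt2 against Ckm between -1.09 and -0.72. With the slide row as a block, aged mouse 1 alone is compared with young mice, and Ckmt2 against Ckm was -0.42.

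Median scaling moved the median log2 fold change of all genes from -0.06 to -0.21, and Ckmt2 (-1.19) and Ampd3 (2.27) with it. The replicate numbers did not pair the mice. Deviations from the group means correlated at -0.06, -0.27 and 0.03 for the same number, and none of the young mice correlated best with the aged mouse of its number. With the replicate block, 0 of the 9 genes passed the threshold (adjusted p = 0.262 from limma for Ckmt2 and for Ampd3), no pathway gene did, and the number over all genes went from 53 to 5. That number was 8 with no filter on dim probes and 35 when detection on each of the 6 arrays was required. In the paired form of the block, the exact sign-flip p was 0.25 for Ampd3 against Ampd1 (2.53) and for Ckmt2 against Ckm (-0.86), the smallest 3 pairs can give. Dim probes limit Ampd3 and Gatm, which were each not well above background on 1 array, and Slc16a12, which was well above it on 1 of 3 arrays of aged mice.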
